A study of Mus musculus with 14 samples.

Results

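The genes described here encode molecular chaperones, heat shock proteins, their cochaperones and prolyl isomerases. They were chosen by symbol, as rows whose names begin with Hsp, Dnaj, Ahsa, Stip1, Hsf or Fkbp with a digit, Cct2 to Cct8, Bag1 to Bag6, or are Ppia to Ppih. The rule found 91 of the 9558 rows of the table, each with a symbol of its own, and used no measured value. All 91 matched the GENCODE M21 annotation of GRCm38 by gene identifier, and 90 were annotated there as protein-coding. The names brought in 3 genes that are not chaperones: Hspg2 (perlecan, a basement membrane proteoglycan), Hspb11 (a protein of intraflagellar transport) and Hsf2bp (a partner of heat shock factor).

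RNA was sequenced from 14 single Tomato-positive cells, all in 1 group, taken from bones of adult C57BL/6 mice of the genotype Prrx1-CreERT;Tomato. Tamoxifen had been given on 3 days, once daily, with 2 mg for each 30 g of mouse. In this line the Prrx1 promoter drives a tamoxifen-dependent Cre recombinase that switches on the red reporter, so a red cell used that promoter or descends from one that did. Tibia, radius and ulna were flushed free of marrow, minced and treated with collagenase before sorting, and single red cells were then picked. Because no animal is named in the labels, the 14 cells stand for 1 sample: no p-value is given, and an SD describes the spread over these cells only.

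Chaperones bind unfolded proteins and help them to reach or regain their shape. HSP70 proteins work in cycles with J proteins, which bring the clients, and with nucleotide exchange factors, while HSP90 acts later on signalling proteins and the CCT ring folds actin and tubulin. Heat and other proteotoxic stress release heat shock factor 1, which binds heat shock elements and switches on the inducible genes. Unfolded protein in the endoplasmic reticulum (ER) instead activates a separate programme that includes the ER chaperones. Cyclophilins and FK506-binding proteins (FKBPs) turn the peptide bond before proline, and those of the ER serve collagen, a proline-rich protein that bone-forming cells secrete in large amounts.

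Levels are log2 quantile-normalized FPKM, where FPKM is read fragments scaled by transcript length and by library size. A gene was counted as detected in a cell at a log2 value of 1 or more. Depth is unknown because the table holds no counts, and quantile normalization gives every cell nearly the same distribution, so values order the genes inside each cell. Between 7304 and 8027 rows were above 0 per cell. The cells carried mesenchymal genes, with a summed log2 level over 7 such markers of 28.2 to 69.4, although Prrx1 itself lay below the detection level in cells 2, 12 and 14. Blood cell markers also appeared: cells 6, 8, 11 and 14 had a summed pan-haematopoietic level (10 genes) of 53.8 to 96.8, against 16.6 to 51.8 in the other 10 cells. Patterns of zeros shared between cells also split the cells into a set of 9 (cells 1, 2, 5, 6, 7, 8, 9, 10 and 14) and a set of 5 (cells 3, 4, 11, 12 and 13), which no label explains.

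Chaperone genes were detected more widely than the rows of the table as a whole. At least 7 cells had 67 of the 91, against 51.7% of all rows, and every cell had 26, against 15.8%. Another 9 were detected in at most 3 cells, against 26.9% of all rows. A mean log2 level of 8 or more was reached by 5 of them, against 2.73% of all rows. These 5 were the cyclophilin gene Ppia, the ER isomerase gene Fkbp7, both cytosolic HSP90 genes Hsp90aa1 and Hsp90ab1, and the ER HSP70 gene Hspa5. Over all pairs of a cell and a gene, 70.9% of the pairs of these genes were detected and 53.0% of those of all rows. The families differed: all 3 HSP90 genes were detected in every cell, all 12 FKBP genes and all 7 CCT genes in at least 7 cells, but 20 of 30 J protein genes and 5 of 8 cyclophilin genes did so.

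**Figure D1:**
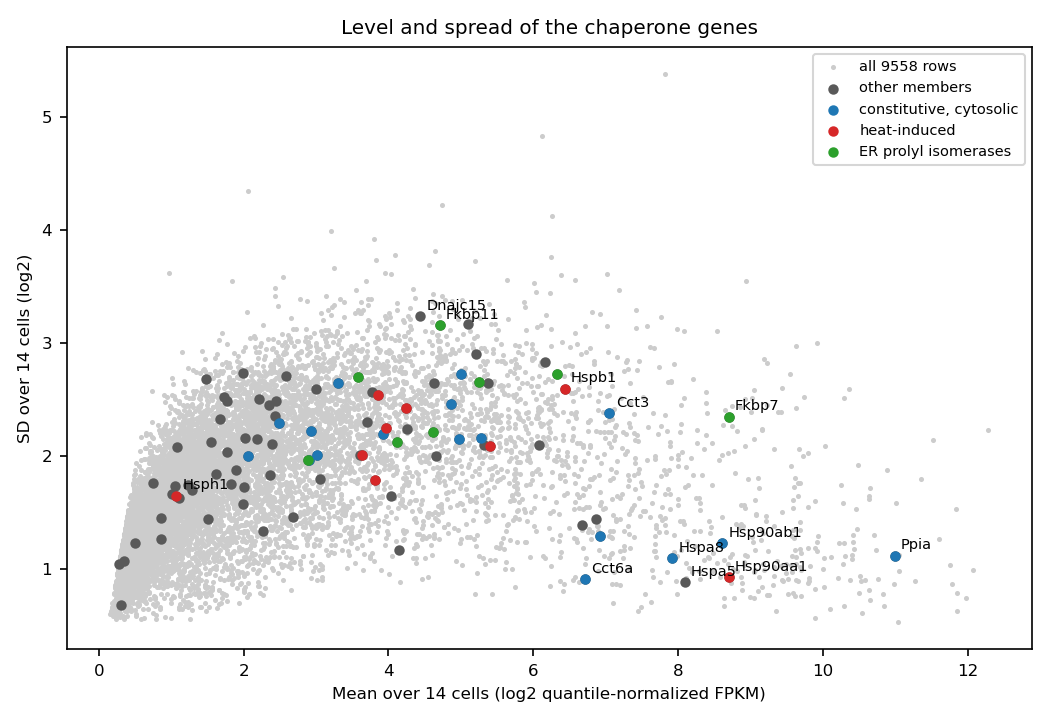
Mean (x axis) and SD (y axis) of the log2 quantile-normalized FPKM over the 14 cells, with 1 point per gene and all rows of the table in the background. Of the chaperone genes, Ppia lies farthest to the right with a mean of 10.99, and Fkbp7 stands above the other 4 genes with a mean of 8 or more, with an SD of 2.35.

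Ppia, the gene of cyclophilin A, an abundant cytosolic isomerase, was the highest of the family in log2 level. Its values ran from 8.28 in cell 6 to 12.65 in cell 4, with a median of 11.09 and an SD of 1.12, and it ranked between 7 and 401 among all rows within a cell. The gene lies on the plus strand of chromosome 11 from 6415443 to 6419817. The table holds 261 rows with a mean of 8 or more, whose median SD was 1.27. Hspa5 had a lower SD than most of them (0.89, above 13.8% of these rows), as did Hsp90aa1 (0.93, above 21.1%). Fkbp7 was the exception among the 5, with an SD above 88.9% of these rows.

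The stress-inducible HSP70 genes Hspa1a and Hspa1b lie beside each other on chromosome 17, both on the minus strand, from 34969190 to 34972156 and from 34956436 to 34959238. Their longest transcripts were 89.9% identical over the aligned bases, but their last 300 bases only 48.4%, and a 3' kit reads that end. The sources used here do not give how reads shared by the pair were assigned, so the split between them is uncertain. Exons of Hspa1a also overlap those of Gm20481 on the other strand over 564 bases. The 250 bases before each start, from RefSeq on GRCm38.p6, are shown because they differ at only 3 positions and hold the same heat shock element. They span chr17:34972157-34972406 for Hspa1a and chr17:34959239-34959488 for Hspa1b and are written along the minus strand. Capitals mark a match to GAANNTTC.

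Hspa1a: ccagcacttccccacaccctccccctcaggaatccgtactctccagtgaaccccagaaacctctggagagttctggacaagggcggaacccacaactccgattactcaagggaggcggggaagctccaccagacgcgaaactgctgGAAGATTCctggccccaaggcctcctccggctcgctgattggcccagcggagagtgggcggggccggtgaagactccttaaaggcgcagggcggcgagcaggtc

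Hspa1b: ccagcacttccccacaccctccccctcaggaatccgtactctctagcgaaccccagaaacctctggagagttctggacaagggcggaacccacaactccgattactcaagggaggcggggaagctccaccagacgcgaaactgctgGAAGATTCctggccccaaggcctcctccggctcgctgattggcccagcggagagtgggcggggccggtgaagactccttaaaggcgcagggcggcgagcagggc

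A heat shock element is built of GAA units in alternating direction, with 2 bases between units. Windows of 300 bases, from 250 before to 50 after each start, were searched on both strands for 2 units (GAANNTTC or TTCNNGAA) and for 3 units in a row (GAA, TTC and GAA), of which the shorter form is a part. RefSeq windows were matched for 74 of the 91 genes and 17 were not matched, among them Hspa8, Hsp90aa1 and Hsp90ab1. The 2-unit form was present in 7 of 8 heat-induced genes (87.5%), 3 of 14 constitutive genes (21.4%) and 17.0% of all 27025 genes with a window. The heat-induced gene without it was Dnajb1. The 3-unit form was present in 4 of the 74 genes, Hspd1, Hspe1, Dnajb6 and Hsph1, and in 0.66% of all genes. These matches are letters in a window and not measured binding.

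Hspa1a was at 4.93, 5.02, 5.01, 2.70, 1.13, 8.62, 0.99, 4.08, 3.53, 6.16, 2.71, 3.38, 6.44 and 0.90 in cells 1 to 14, with a median of 3.81 and an SD of 2.25. Cell 6 stood highest, and cells 7 and 14 lay just below the detection level. Hspa1b was at 6.48, 2.64, 8.23, 5.62, 3.22, 2.17, 1.55, 3.999, 3.69, 3.89, 3.12, 3.43, 2.24 and 0.56 in the same order, with a median of 3.32 and an SD of 2.01. Its highest cell was 3, followed by cells 1 and 4, so the high cells of the pair were not the same ones. Over the 14 cells the rank correlation between them was 0.18 (rho), given as a description of cells that share their preparation. The difference Hspa1a minus Hspa1b ran from -3.22 in cell 3 to 6.45 in cell 6.

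The constitutive HSP70 gene Hspa8, on chromosome 9 from 40800984 to 40810087, was much steadier and higher. Its log2 level was 8.58, 9.03, 9.03, 7.57, 7.33, 7.13, 7.76, 9.57, 8.42, 7.48, 8.35, 7.44, 8.12 and 5.08 in cells 1 to 14, with a median of 7.94 and an SD of 1.10. The mean of both inducible genes minus Hspa8 was below 0 in all 14 cells, with a median of -4.19, an SD of 1.40 and a range from -6.49 in cell 7 to -1.73 in cell 6. Taken alone, Hspa1a exceeded Hspa8 in 1 cell, cell 6, by 1.49. Cell 6 is also one of the 4 cells with high blood markers, and the part of those markers in its values was not tested.

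**Figure D2:**
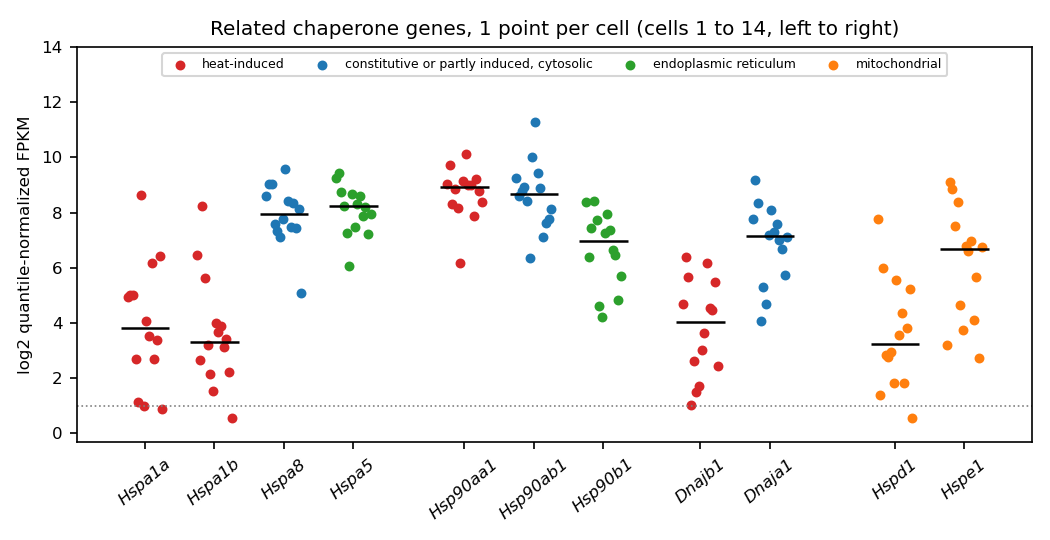
Log2 quantile-normalized FPKM (y axis) of related chaperone genes, 1 point per cell with cells 1 to 14 from left to right within a gene, the median as a bar and the detection level of 1 dotted. Hspa8 and Hspa5 sit above Hspa1a and Hspa1b, apart from Hspa1a in cell 6, while Hsp90aa1 and Hsp90ab1 overlap throughout.

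Cytosolic HSP90 showed no such gap between its inducible and constitutive genes. Hsp90aa1, the gene of the partly inducible form, was at 9.03, 9.71, 8.32, 8.86, 8.17, 6.19, 9.13, 10.11, 9.004, 8.99, 7.88, 9.23, 8.77 and 8.38 in cells 1 to 14. Hsp90ab1, the constitutive form, was at 9.26, 8.61, 8.77, 8.93, 8.40, 6.34, 9.9999, 11.28, 9.44, 8.90, 7.12, 7.64, 7.77 and 8.12. The medians were 8.92 and 8.69, and the ranges overlapped over most of their length. Within cells the difference had a median of -0.11 and an SD of 0.78, with 6 cells above 0 and 8 below, from -1.17 in cell 8 to 1.60 in cell 12. Its sign depended on the processing: with the division by length undone approximately, from annotated exonic length, the median was 0.28. The same median was 0.76 in the set of 5 cells defined by shared zeros, and -0.23 in the set of 9. Both genes were lowest in cell 6, which also had the lowest Ppia and Hspa5 (6.07) of all cells. Across cells the pair gave rho 0.63 and r 0.77, and r 0.45 without cells 6 and 8. Its rho was 0.16 without cells 6, 8, 11 and 14 and 0.80 in the set of 9 cells, so the relation rested on the cells used.

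The heat-induced list holds genes that heat shock factor 1 is known to activate, and 9 of its 10 genes had a row. At least 7 cells had 8 of these, and all 14 had 4 (Hsp90aa1, Hspb1, Dnajb1 and Dnajb4), against 51.7% and 15.8% of all rows. The median of their mean levels was 3.97 and the median of their SDs 2.09. The constitutive cytosolic list had all 17 genes with a row and all in at least 7 cells, 10 of them in every cell, with a median mean of 4.97 and a median SD of 2.15. Over all rows the median mean was 1.70 and the median SD 1.75. Heat-induced genes were thus not more uneven over the cells than constitutive ones by this measure, with a difference between the median SDs of -0.06 whose sign changed under several alternatives.

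Within a cell, the mean over the heat-induced genes minus the mean over the constitutive genes was 0.96, 0.65, 0.81, -1.81, -2.18, -0.41, -2.41, 0.62, -0.58, 0.10, -0.58, -1.48, -0.44 and -2.56 in cells 1 to 14. The median was -0.51 and the SD 1.23, with 5 cells above 0 and 9 below. Cells 1, 2, 3 and 8 were highest, and cells 4, 5, 7 and 14 were lowest. In the 4 cells with high blood markers the median was -0.49 and in the other 10 it was -0.51. The heat-induced mean itself ran from 2.27 in cell 14 to 6.88 in cell 3, and the constitutive mean from 4.31 in cell 11 to 6.50 in cell 4. The median difference was -0.03 with Ppia and Fkbp1a left out of the constitutive list. It was -0.04 with only genes detected in at least 7 cells, which leaves out Hsph1 alone, so its distance from 0 rested on a few genes of either list.

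**Figure D3:**
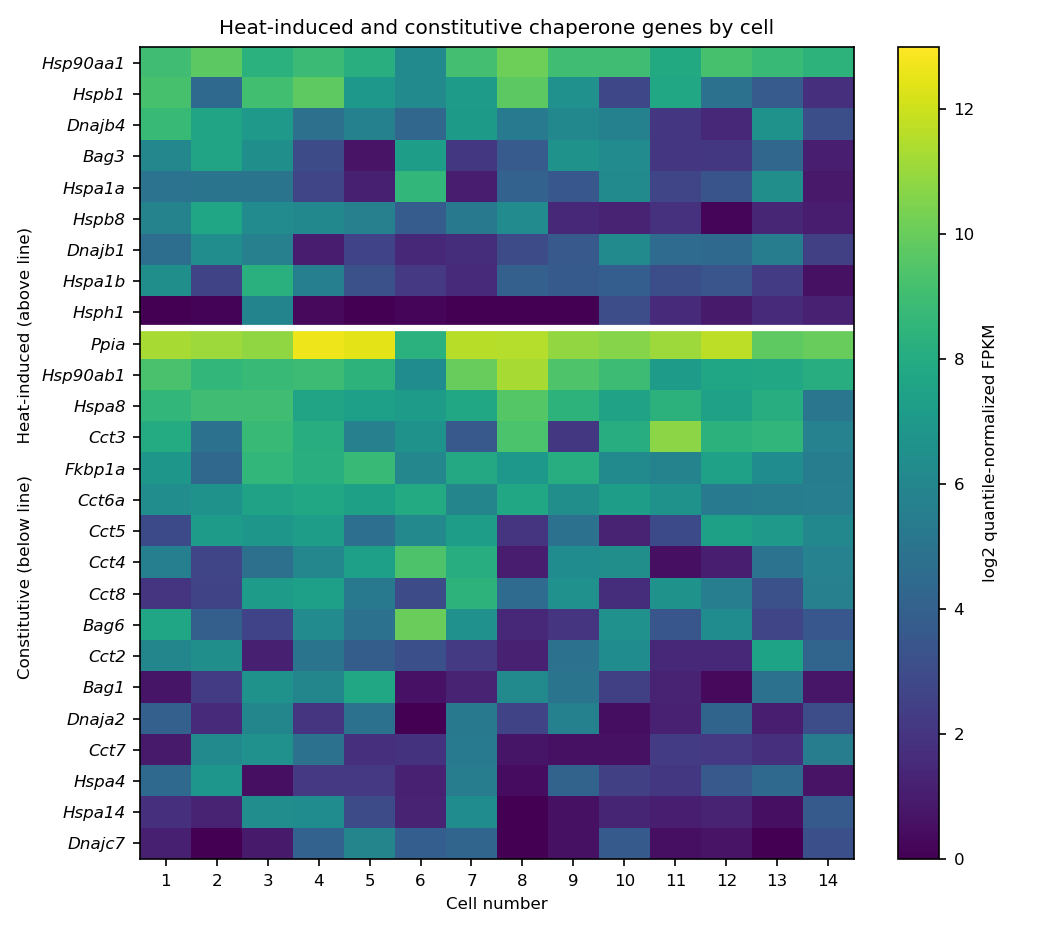
Log2 quantile-normalized FPKM (colour) of the heat-induced and constitutive cytosolic genes (rows) in cells 1 to 14 (columns). The row of Ppia is high in every cell, and Hspb8 is at 3.78 to 7.68 in cells 1 to 8 and at 0.24 to 1.87 in cells 9 to 14.

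**Figure D4:**
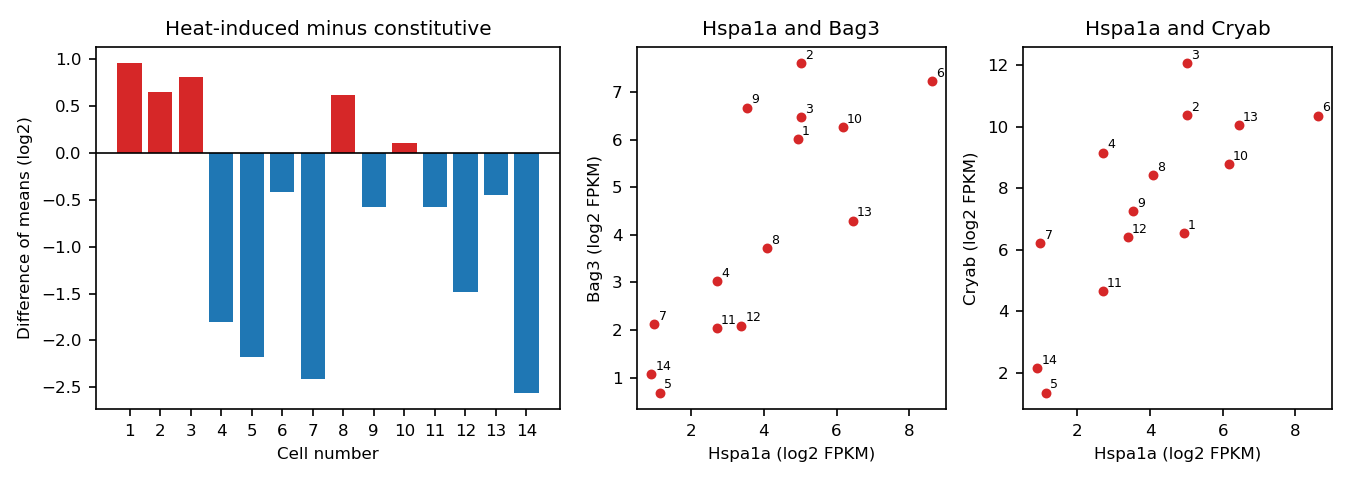
Left, the mean of the heat-induced genes minus the mean of the constitutive cytosolic genes (log2) by cell, red where above 0. Middle and right, log2 quantile-normalized FPKM of Bag3 and Cryab (y axes) against Hspa1a (x axes), 1 numbered point per cell. The difference is above 0 in 5 of 14 cells, and Bag3 and Cryab have a rho of 0.80 and 0.79 with Hspa1a. Both genes are among the 5 rows nearest to Hspa1a in rank, of 4931 searched in the same cells. With Hspa1b, not drawn here, they have a rho of 0.22 and 0.30.

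The small heat shock proteins hold unfolding proteins in solution without ATP. Hspb1 (HSP25 of the mouse) was at 9.20, 4.47, 9.04, 9.79, 6.93, 6.19, 7.13, 9.75, 6.59, 2.82, 7.82, 4.86, 3.75 and 1.78 in cells 1 to 14, with the widest SD of the heat-induced list, 2.60. Hspb8, which works with Bag3 in the selective disposal of damaged proteins, was detected in 12 cells. Its values were 5.83, 7.68, 6.25, 6.06, 5.66, 3.78, 5.27, 6.27, 1.49, 1.25, 1.87, 0.24, 1.37 and 0.97, so that the 8 cells numbered 1 to 8 all lay above the other 6. The cell numbers come from the sample names, and the sources used here do not say whether they reflect an order of picking or a plate. Rank correlation between Hspb1 and Hspb8 was 0.66 over 14 cells. Hspb2 and Hspb6, small heat shock genes known from muscle, were detected in 5 and 4 cells, with maxima of 8.04 in cell 13 and 6.65 in cell 10. Exons of Hspb2 overlap those of Cryab on the other strand over 252 bases, and the sources used here do not give the strandedness of the counting.

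Among the cofactors, Bag3, a nucleotide exchange factor of HSP70, was found in 13 cells, at a median of 4.01, with a range from 0.69 in cell 5 to 7.60 in cell 2. Cell 6 was second at 7.24. Dnajb1, the J protein that partners inducible HSP70, had a median of 4.05, an SD of 1.79 and a range from 1.03 in cell 4 to 6.38 in cell 2. It lay below the related J protein gene Dnaja1 (median 7.16) in all 14 cells, by a median difference of -2.92. Dnajb4, a further J protein, had a median of 5.71 and reached 8.76 in cell 1. Hsph1, an HSP110 protein that also exchanges nucleotide on HSP70, was detected in 5 cells only, and reached 5.88 in cell 3, the cell with the highest Hspa1b.

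Of the 28 pairs among the 8 heat-induced genes detected in at least 7 cells, 5 had a rho of 0.5 or more over the cells (17.9%), against 5.54% of all pairs of such rows, and the median rho was 0.22. The highest were Hspa1a with Bag3 (0.80), Hspb1 with Hspb8 (0.66) and Hspa1b with Hspb1 (0.62). Constitutive genes gave 13 of 136 pairs (9.56%) with a median of 0.07, and all 67 genes gave 133 of 2211 pairs (6.02%), close to the share of all rows. Among 4931 other rows, those most like Hspa1a in rank over the 14 cells included Ptges3l (rho 0.82), Bag3 (0.80), Cryab (0.79) and Rad1 (0.78). Cryab, the gene of the small heat shock protein alpha B-crystallin, was found in every cell, at a median of 7.85 and up to 12.07 in cell 3. The Hspa1a and Bag3 relation was 0.64 without cells 6, 8, 11 and 14. Hspa1b, whose split of reads from Hspa1a is uncertain, had a rho of 0.22 with Bag3 and 0.30 with Cryab.

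Tissue digestion is known to switch on immediate early genes, and its part in their levels here was not tested. The median of the mean levels of these genes was 6.23, against 1.70 over all rows. The mean within a cell over 16 of them, such as Fos, Jun and Egr1, ran from 2.76 in cell 4 to 7.48 in cell 12, with a median of 6.35. The heat-induced mean had a rho of 0.16 with it over the 14 cells and -0.26 over the 10 cells without high blood markers. Over the set of 9 cells that share zeros the rho was 0.53, so its sign depended on the cells used. Single members differed, with a rho over the 14 cells of 0.31 for Hspa1a and -0.35 for Hspb1. Over the 10 cells these were 0.42 and -0.79, and over the set of 9 cells 0.25 and 0.03. Other single members were not compared with this mean. Cell 4 had the lowest immediate early mean and a heat-induced mean of 4.69, close to the median of 4.52.

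The genes of the heat shock factors were low. Hsf1, the gene of the main heat-responsive factor, was detected in cells 4, 5 and 7, at 2.03, 2.08 and 5.28. Hsf2, its relative with a role in development, was detected in cells 3, 6 and 9, at 4.36, 1.24 and 2.96. No cell reached the detection level for both, with each detected in only 3 of 14 cells. Hsf1 was above 0 in 10 cells and Hsf2 in 11. Some cells thus had both above 0, such as cell 3 with Hsf1 at 0.32. Hsf1 is known to be controlled mainly at the protein level, so its transcript says little of its activity.

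CCT is a ring of 8 related subunits that encloses actin and tubulin while they fold. Rows matched by the rule were found for 7 of them, Cct2 to Cct8 with Cct6a as the sixth, and the list of other pathway genes held the remaining subunit, Tcp1. Each of the 7 was present in at least 7 cells, and 5 were in all 14, against 51.7% and 15.8% of all rows. Cct3 was the highest, with a median of 8.05 and a range from 2.08 in cell 9 to 10.75 in cell 11, whereas Cct6a was the steadiest, with a median of 6.66 and an SD of 0.91. Cct4 ran from 0.53 in cell 11 to 9.39 in cell 6, and Cct7 was found in 10 cells, at a median of 2.03. Tcp1, found in 13 cells, had a median of 4.21. The subunits form 1 complex, and of the 21 pairs of their transcripts 2 had a rho of 0.5 or more over these cells (9.52%), against 5.54% of all pairs of rows, with a median rho of -0.02. Exons of Cct6a, Cct7 and Cct8 overlap genes on the other strand.

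Hspd1 (HSP60) and Hspe1 (HSP10) encode the mitochondrial chaperonin and its lid and are read in opposite directions from a shared promoter on chromosome 1. The 30 bases around its heat shock element, at chr1:55088053-55088082 on the plus strand of GRCm38.p6 from RefSeq, are shown because this pair held the 3-unit form. Capitals mark 2 overlapping matches on opposite strands.

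Hspd1 and Hspe1: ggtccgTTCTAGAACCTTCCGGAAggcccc

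Despite the shared promoter, the pair showed no positive correlation. Hspe1 was at 3.21, 9.11, 8.86, 7.51, 8.40, 4.65, 3.74, 6.79, 6.62, 6.97, 4.13, 5.69, 2.72 and 6.76 in cells 1 to 14. Hspd1 was at 7.76, 1.40, 5.99, 2.82, 2.76, 2.96, 1.81, 5.57, 3.55, 4.35, 1.83, 3.81, 5.24 and 0.55. Hspe1 was higher in 12 cells and Hspd1 in cells 1 and 13, with a median difference of 2.46, and their rho was -0.17. Annotated exons of the pair overlap over 112 bases. Of the other mitochondrial genes, Hspa9, the HSP70 of the matrix, was found in 10 cells, at a median of 1.73. Dnajc15 and Dnajc19, J proteins of the protein import motor, had medians of 4.09 and 4.14. Dnajc15 had the widest SD of all 91 genes, 3.24: it was at 5.41 to 9.36 in cells 1, 4, 5, 6, 7, 10 and 13 and at most 2.77 in the others. Dnaja3 and Ppif, a matrix J protein and the cyclophilin of the permeability transition, were detected in 5 and 4 cells.

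The ER holds its own HSP70, HSP90 and J proteins, whose genes are known to be switched on through the ER stress response element, CCAAT and CCACG with 9 bases between. Within the windows this element was found in 3 of 6 ER stress-induced genes, Hspa5, Hsp90b1 and Dnajc3, against 0.14% of all genes. Their sequences are shown with the element in capitals, from RefSeq on GRCm38.p6. For Hspa5 they cover chr2:34772019-34772048 on the plus strand, for Hsp90b1 chr10:86705510-86705694 on the minus strand, with 2 matches in opposite directions, and for Dnajc3 chr14:118937682-118937931 on the plus strand.

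Hspa5: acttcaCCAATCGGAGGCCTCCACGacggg

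Hsp90b1: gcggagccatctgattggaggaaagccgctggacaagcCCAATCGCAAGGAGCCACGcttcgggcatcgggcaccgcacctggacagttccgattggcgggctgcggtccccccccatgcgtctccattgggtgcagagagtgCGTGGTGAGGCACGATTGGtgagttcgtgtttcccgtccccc

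Dnajc3: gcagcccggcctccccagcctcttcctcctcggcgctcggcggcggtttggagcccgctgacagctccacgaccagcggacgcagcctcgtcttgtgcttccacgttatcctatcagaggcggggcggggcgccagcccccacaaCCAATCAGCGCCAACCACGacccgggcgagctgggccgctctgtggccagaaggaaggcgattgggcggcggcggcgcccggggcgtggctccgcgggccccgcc

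Hspa5 (BiP), the HSP70 of the ER, was as high as its cytosolic relative. It was at 9.24, 9.43, 8.74, 8.26, 7.25, 6.07, 8.68, 7.48, 8.32, 8.59, 7.89, 8.21, 7.23 and 7.93 in cells 1 to 14, with a median of 8.23 and the smallest SD of its list, 0.89. Hspa5 minus Hspa8 had a median of 0.16, with 7 cells above 0 and 7 below. Hsp90b1 (GRP94), the HSP90 of the ER, had a median of 6.96, ran from 4.20 in cell 7 to 8.43 in cell 4, and lay below Hsp90ab1 in all 14 cells by a median difference of -1.51. Although both carried the element, Hspa5 and Hsp90b1 had a rho of 0.29 over the cells.

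The ER J proteins were more uneven. Dnajb11, a partner of BiP, had a median of 4.42 and an SD of 2.65, reaching 9.12 in cell 1 against 1.498 in cell 8. Dnajb9 had a median of 5.00 and Dnajc3 of 3.11, detected in 13 and 12 cells. Dnajc10, an ER J protein that reduces disulfides, was detected in 7 cells and Hspa13 in 4. In this list 0 of 15 pairs among the 6 genes detected in at least 7 cells had a rho of 0.5 or more. The share over all pairs of rows was 5.54%. Of 10 other genes of the unfolded protein response, at least 7 cells had 7 and all 14 had 3, against 51.7% and 15.8% of all rows. Its regulators Atf4 and Ddit3 had medians of 7.81 and 5.65, and Xbp1 of 5.51. The mean of the ER stress-induced list ran from 2.94 in cell 6 to 5.90 in cell 4 and had a rho of 0.28 with the mean of these 10 genes.

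The prolyl isomerases of the ER had the highest share of correlated pairs among the chaperone lists described here. Each of the 8 reached at least 7 cells, and 4 were found in all 14 (Ppic, Fkbp7, Fkbp9 and Fkbp11). Over all rows these shares were 51.7% and 15.8%. Of their 28 pairs, 16 had a rho of 0.5 or more (57.1%), against 5.54% of all pairs of rows, and the median rho was 0.56, from -0.42 to 0.87. The highest were Ppic with Fkbp14 (0.87) and Ppib with Fkbp9 (0.78). The lowest were the pairs with Fkbp2, from -0.42 with Fkbp11 to 0.14 with Fkbp14, so Fkbp2 did not share the pattern. Without cells 11 and 14, the 2 cells with the highest pan-haematopoietic means, 10 pairs were at 0.5 or more, against 7.10% of all pairs. Without cells 6, 8, 11 and 14 also 10 were, against 9.38%. The 14 cells share their preparation, and these values describe them without a test.

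Ppic (cyclophilin C) was at 9.11, 4.18, 3.38, 7.77, 8.37, 6.15, 6.95, 2.30, 7.40, 10.05, 3.59, 7.89, 9.41 and 2.07 in cells 1 to 14. Its high cells were 10, 13, 1 and 5 and its low cells 14 and 8. Ppib (cyclophilin B), which works with prolyl 3-hydroxylase on collagen, had a median of 5.17, was below 1 in cells 2, 6 and 11, and reached 7.31 in cell 10. It stayed below the cytosolic Ppia in all 14 cells, by a median difference of -6.22. Exons of Ppib overlap those of Snx22 on the other strand over 825 bases.

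Fkbp7, on chromosome 2 from 76663044 to 76673116, was the highest FKBP gene. It was at 10.11, 8.92, 5.21, 6.96, 9.17, 7.95, 9.81, 9.44, 9.86, 10.75, 8.86, 10.49, 11.52 and 2.76, so that cell 14, the cell with the highest pan-haematopoietic mean, lay lowest, and cell 3 second lowest. Fkbp11, on chromosome 15 from 98724366 to 98728198, split the cells most sharply of the FKBP genes. It was at 1.90, 2.85, 2.69, 8.10, 8.25, 5.09, 3.12, 1.80, 1.74, 9.85, 2.65, 7.51, 9.12 and 1.23, which puts cells 4, 5, 10, 12 and 13 at 7.51 or more, cell 6 between, and the other 8 at 3.12 or less. Its SD of 3.16 was the largest of the list.

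Fkbp11 has been described as a partner of the osteoblast membrane protein Ifitm5, whose gene reached 11.72 in cell 6, 9.004 in cell 10 and 10.60 in cell 13. Cells 4, 5 and 12 had high Fkbp11 with Ifitm5 at 0.83, 0.42 and 2.90. The pair had a rho of 0.36 and an r of 0.45 over 14 cells, and r was 0.03 without cells 10 and 13, so the relation rested on those cells. The rows most like Fkbp11 over the 14 cells were Use1 (rho 0.93), Insig2 (0.89), Mrpl30 (0.83), Pon3 (0.82) and Avpi1 (0.82).

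Of the remaining ER isomerases, Fkbp10 (FKBP65), a collagen chaperone altered in brittle bone disease, was found in 10 cells, at a median of 3.34 and up to 7.77 in cell 10. Fkbp14, linked to a connective tissue disorder, had a median of 2.65 and reached 6.76 in cell 1. Fkbp9 had a median of 4.59 and reached 7.49 in cell 10. Fkbp2 had a median of 5.55, with 8.49 in cell 8 and 0.76 in cell 11.

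The mean over the 8 genes was highest in cells 10 (7.56), 5 (7.05) and 13 (7.02) and lowest in cells 11 (2.38) and 14 (2.53). Against the mean of the constitutive cytosolic genes in the same cell, it was higher in 6 cells and lower in 8. The difference ran from -2.53 in cell 3 to 2.74 in cell 10, with a median of -0.35. That median was 0.08 without cells 11 and 14 and 0.69 without cells 6, 8, 11 and 14, so its sign depended on the cells used. Cells 2, 3 and 7, outside those cells, were also low, at -1.70, -2.53 and -1.42. The mean over the 8 isomerase genes had a rho of 0.83 (r 0.81) with the mean over 9 genes that modify or fold collagen. Among these are Serpinh1, P4hb, P3h1 and Plod2, and r was 0.84 without cells 11 and 14. With Col1a1 the isomerase mean had a rho of 0.50. Single pairs were weaker than the list means. Ppib with P3h1 had a rho of 0.36, and Fkbp10 with Serpinh1 0.49, or 0.18 without cells 10 and 13. The rho of the isomerase mean was -0.78 with the pan-haematopoietic mean, and -0.66 over the 10 cells without high blood markers. With the ER stress-induced mean it was 0.75. Whether the share of blood RNA in a cell set these relations was not tested.

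**Figure D5:**
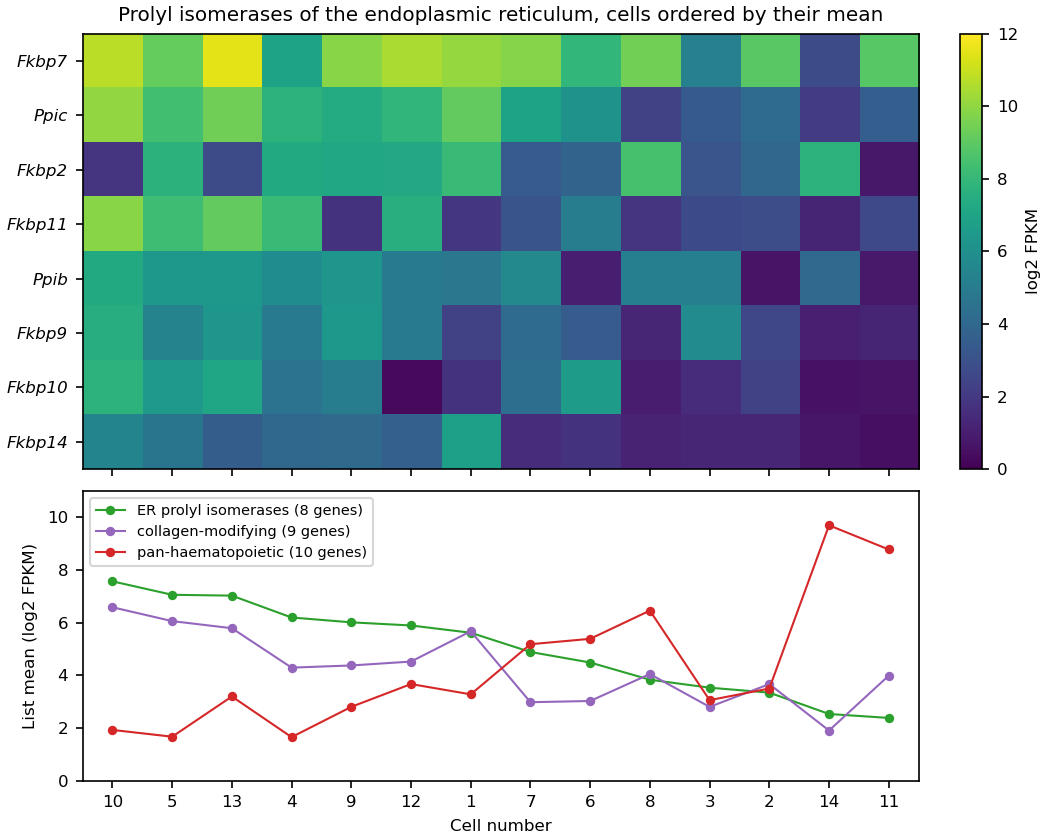
Top, log2 quantile-normalized FPKM (colour) of the 8 ER prolyl isomerase genes (rows) by cell, with cells in order of the mean over these genes. Bottom, that mean with the means of 9 collagen-modifying and 10 pan-haematopoietic genes in the same cells. Cells 10 and 13 are near the upper end of the isomerase and collagen means (7.56 and 6.58, 7.02 and 5.78), and cell 14 is near the lower end (2.53 and 1.91) with the highest pan-haematopoietic mean (9.68).

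The cytosolic and nuclear prolyl isomerases gave a smaller share of correlated pairs. Of 11 with a row, at least 7 cells had 9 and all 14 had 3 (Ppia, Ppig and Fkbp1a), against 51.7% and 15.8% of all rows. Among the 9, 3 of 36 pairs had a rho of 0.5 or more (8.33%), against 5.54% of all pairs of rows, with a median of -0.04. Fkbp1a (FKBP12), the target of FK506 and rapamycin, had a median of 6.92 and ran from 4.38 in cell 2 to 8.77 in cell 5. Fkbp3, a nuclear isomerase, had a median of 6.76 but was at 0.63 in cell 14. Fkbp8, an anchored protein of the mitochondrial surface, had a median of 3.70. Fkbp4 (FKBP52), an HSP90 partner in steroid receptor complexes, was found in 8 cells, at up to 6.69 in cell 3. Ppid, the cyclophilin of the same complexes, was detected in 5 cells. The spliceosomal cyclophilins Ppie and Ppih were detected in 6 and 7 cells, with maxima of 6.19 in cell 3 and 7.49 in cell 13.

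Among the cochaperones, at least 7 cells had 6 of 8 genes, against 51.7% of all rows, and every cell had Bag6. Bag6, which guards tail-anchored and misplaced membrane proteins, had a median of 4.39 and reached 10.01 in cell 6. Ahsa1, an activator of the HSP90 ATPase, had a median of 3.97 and reached 6.80 in cell 11. Bag1 had a median of 2.37 and ran up to 7.80 in cell 5. Stip1 (HOP), which hands clients from HSP70 to HSP90, was found in 9 cells, at a median of 1.17. The mean over these genes was lowest in cell 14, at 0.96, against a median of 3.28.

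Of the J proteins and other members outside these lists, at least 7 cells had 12 of 25 and all 14 had 3. The shares over all rows were 51.7% and 15.8%. Dnaja1 was the highest, with a median of 7.16 and a range from 4.06 in cell 4 to 9.17 in cell 2. Dnajc8, a splicing-associated J protein, had a median of 6.73 but ran from 0.95 in cell 3 to 9.59 in cell 2. Dnajb6, a suppressor of protein aggregation, and Dnajb14, an ER membrane J protein, were detected in all cells, with medians of 5.67 and 4.13. Dnajc25 reached 8.63 in cell 2, Dnajc1 8.47 in cell 13, Dnajc24 8.09 in cell 12 and Dnajc4 7.70 in cell 9, each far above its own median of 2.93, 1.75, 0.00 and 1.89. Another 4 members were detected in 1 cell each, Dnajb3, Dnajc12, Dnajc17 and the testis-enriched Hspa2 (4.72 in cell 8). They were named after their values were seen.

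Chaperone genes outside the naming rule were also widely detected. From a list of 30, 28 had a row. At least 7 cells had 26 of these, and every cell had 13, against 51.7% and 15.8% of all rows. P4hb, the protein disulfide isomerase that is also a subunit of prolyl 4-hydroxylase, had a median of 10.12 and ran from 5.89 in cell 7 to 11.30 in cell 9. The collagen chaperone gene Serpinh1 had a median of 6.82 and was at 1.80 in cell 14. Calr, the gene of the ER lectin calreticulin, had a median of 6.26, and St13, a cofactor of HSP70, of 6.04. Of the genes matched by name alone, Hspb11 had a median of 4.25 and an SD of 3.17, and Hspg2 and Hsf2bp were detected in 6 and 2 cells. In all, 33 of the 91 genes share exon bases with another gene, 29 of them with a gene on the other strand, so values of such genes may include reads of their neighbours. The share of all rows with such an overlap was not computed.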

How the data were processed

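Per the labels' protocols, libraries of single cells came from SMART-Seq v4 3' and Nextera XT kits. Per the submitters' processing notes, the tools were TopHat2 and Cufflinks and the build GRCm38, all without a version. The deposited table holds log2 values, read from the values as log2(FPKM + 1) after quantile normalization by the authors. Neither step is recorded in the labels. FPKM divides by length although a 3' kit does not read in proportion to it. All 14 columns matched a cell by title and 0 were left over.

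From the table, detection was counted at a log2 value of 1 or more, list means and differences were taken within each cell, and rank correlations were computed over cells with Python 3.11.15, pandas 2.3.3, numpy 2.4.6 and scipy 1.17.1. Pair counts used rows detected in at least 7 cells and a rho of 0.5 or more. Transcripts were aligned with Biopython 1.88. The scripts were tested on simulated data. Named genes are members of the lists, the 5 other members with the highest mean and the 5 with the largest SD, and the 5 rows nearest to Hspa1a and Fkbp11, of which 1 is not reported here. The members and lists were chosen with earlier results of these data known. Alternatives changed the length scaling, the pseudocount, the detection level, the lists and the cells used. The division by length was undone only approximately. Normalized values were multiplied by the length of all annotated exons of a gene, which can exceed that of its transcripts (4301 against 3158 bases for Hspa8). The splits by shared zeros, the list without Ppia and Fkbp1a, and the alternatives for the ER isomerase pairs were chosen after seeing the data. No test between samples was possible, since the labels give 1 group and name no animal.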

Additional observations from a re-analysis of the deposited data

How the results depend on the processing

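Of 59 alternatives to the main values, 9 turned a difference's sign and 6 moved a count by over 1.5 times. The other 44 kept the sign of a difference, though not always its size, or kept a count within 1.5 times. Some of the 44 could not differ from the main value. An example is the HSP70 and HSP90 differences with only genes detected in at least 7 cells, which left out none of their genes. The heat-induced minus constitutive difference kept its negative sign, from -0.85 (narrow constitutive list) to -0.03 (without Ppia and Fkbp1a) and -0.04 (only genes detected in at least 7 cells), as did inducible minus constitutive HSP70, from -5.08 (division by length undone) to -3.10 (pseudocount of 10). Hsp90aa1 minus Hsp90ab1 turned to 0.28 with the division by length undone and 0.76 in the smaller set of cells. The ER isomerase minus constitutive difference turned to 0.079 without cells 11 and 14 and 0.69 without cells 6, 8, 11 and 14. The difference in median SD between heat-induced and constitutive genes turned to 0.073 with the division by length undone, 0.25 with a pseudocount of 10, 0.015 with only genes detected in at least 7 cells, 0.49 with the narrow constitutive list and 0.52 in the smaller set of cells. The cause of these turns was not tested.

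Raising the detection level to an FPKM of 10 left 42 genes in at least 7 cells, against 67. In all 14 cells, 60 genes had a value above 0, 11 reached an FPKM of 5 and 9 an FPKM of 10, against 26. Shares of all rows at these levels were not computed, so the comparison with all rows is given only at a log2 value of 1. ER isomerase pairs with a rho of 0.5 or more numbered 10 without cells 11 and 14 and 10 without cells 6, 8, 11 and 14, against 16, with fewer cells in each. No paired analysis was possible because the labels give 1 group. Depth is unknown, so a value near 0 cannot be told from a transcript missed in a single cell.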
